A study of Mus musculus with 7 samples.

Results

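The 8 genes described here encode the FoxO transcription factors Foxo1, Foxo3 and Foxo4 and 5 ubiquitin ligases linked to muscle wasting, Fbxo32 (atrogin-1), Trim63 (MuRF1), Fbxo30 (MUSA1), Fbxo40 and Traf6. They were chosen by name, and all 8 were among the 23930 genes of the panel. RNA was measured in Pax7-GFP cells sorted from the hind leg muscles of mice kept in room air (normocapnia, 3 libraries, NC1 to NC3) or in elevated CO2 (hypercapnia, 4 libraries, HC1 to HC4). Both groups carried an inducible Pax7-GFP reporter on a background that the protocols call C57/B6 (the number in the strain label itself goes up by 1 from library to library). Both groups were given tamoxifen and held in their atmosphere for 4 weeks from 12 weeks of age, and cells were collected at 16 weeks. The hypercapnia chamber held 10% CO2, and leg muscles of both groups were injected with cardiotoxin, a toxin that kills myofibers and starts repair, 3 days before collection, a step the labels leave out. The title of the deposited table gives a time in hours that differs from this, so the time between injury and collection is not certain. The Cre recombinase that turns the reporter on is driven from the Pax7 locus, and GFP then stays on in the descendants of the marked cells. By design the gate is therefore meant to hold cells marked by their history and not by their Pax7 level at collection. The sources used here do not say whether a library came from 1 animal or a pool. The p-values therefore measure the spread between these libraries, part of which may be technical.

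FoxO factors are held in the cytoplasm when insulin or IGF-1 signals through PI3K and Akt, and enter the nucleus when that signal is low. In wasting muscle they switch on Fbxo32 and Trim63, the best known atrophy ligases, which mark muscle proteins for the proteasome. Fbxo32, Fbxo30 and Fbxo40 are F-box proteins, the parts of cullin-RING ligases that choose the substrate. Trim63 is a RING ligase of the sarcomere, and Traf6 is a RING ligase that passes signals from Toll-like and interleukin-1 receptors by building ubiquitin chains that recruit kinases. In satellite cells, the stem cells of muscle, FoxO factors are known for keeping the cells quiescent.

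Promoter windows of 2 muscle ligases, Trim63 and Fbxo40, and of Traf6, the member whose groups did not overlap, are printed to show which motifs each holds. The windows are RefSeq's, on build GRCm38.p6, and run from 250 bases before to 50 bases after the start of transcription. Capitals mark a FoxO core (GTAAACA or GTAAATA on either strand), an E-box (CAGCTG, the motif bound by MyoD, the same on both strands) and a TATA box (TATAAA, gene strand).
Trim63, chr4:134314870-134315169, plus strand: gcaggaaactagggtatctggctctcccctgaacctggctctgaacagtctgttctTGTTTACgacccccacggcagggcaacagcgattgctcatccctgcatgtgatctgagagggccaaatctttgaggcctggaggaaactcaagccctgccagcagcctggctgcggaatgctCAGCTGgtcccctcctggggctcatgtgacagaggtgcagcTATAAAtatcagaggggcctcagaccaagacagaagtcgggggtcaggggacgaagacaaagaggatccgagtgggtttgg
Fbxo40, chr16:36990418-36990717, minus strand: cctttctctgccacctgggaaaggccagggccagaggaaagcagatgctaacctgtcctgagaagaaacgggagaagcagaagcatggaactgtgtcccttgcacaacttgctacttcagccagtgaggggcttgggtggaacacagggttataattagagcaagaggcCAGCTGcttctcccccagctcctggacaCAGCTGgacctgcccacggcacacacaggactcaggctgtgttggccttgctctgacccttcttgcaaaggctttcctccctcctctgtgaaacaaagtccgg
Traf6, chr2:101678170-101678469, plus strand: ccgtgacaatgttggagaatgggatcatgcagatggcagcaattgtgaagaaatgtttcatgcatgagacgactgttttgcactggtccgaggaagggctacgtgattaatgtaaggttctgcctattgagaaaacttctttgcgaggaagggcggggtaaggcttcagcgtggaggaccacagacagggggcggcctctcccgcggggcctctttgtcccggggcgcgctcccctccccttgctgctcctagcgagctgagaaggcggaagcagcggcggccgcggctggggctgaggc
The Trim63 window held each of the 3 motifs. Its FoxO core, read as TGTTTAC on the gene strand, lay 194 bases upstream of the start, its E-box 72 and its TATA box 31 bases upstream. The Fbxo40 window held 2 E-boxes, 81 and 53 bases upstream, and a second Fbxo40 start at chr16:36979087-36979386 had 1, 89 bases upstream. None of the 3 motifs was found in the windows of Traf6, Foxo1, Foxo3 or Fbxo30. Of all 32851 windows of this length, 6.54% held a FoxO core, 16.3% the E-box and 8.32% the TATA box. The GC content was 57.0% for Trim63, 56.0% and 51.3% for the 2 Fbxo40 windows, 59.3% for Traf6, 61.3% for Foxo1, 75.0% for Foxo3 and 79.7% for Fbxo30, beside a median of 52.7% over all windows. Windows were matched for 6 of the 8 genes, and for Fbxo32 and Foxo4 none was matched.

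Libraries held 14527445 to 23388710 reads, and the authors deposited RPM, which scale each library to the same number of panel reads. Fbxo40 had between 1 and 129 reads in a library, and the other 7 genes had 22 reads or more in each. The smallest level resolved, taken as 3 reads, was 0.128 to 0.207 RPM, for counting error only. The panel measures an amplicon per gene, so levels are compared between libraries and not between genes. NC1, NC2, HC1 and HC2 had 445 to 701 RPM of Xist, the RNA that silences an X chromosome in female cells, and NC3, HC3 and HC4 had 0 to 0.125 RPM together with Y-linked Ddx3y at 103 to 206 RPM. The labels give no sex, so these are called Xist-high and Xist-low libraries. Only NC3 is both Xist-low and normocapnic, and it also had the fewest genes at 1 RPM or more, 10619. Satellite cell markers were present in each library but spread widely, Pax7 from 4.34 to 268 RPM in normocapnia and from 20.1 to 79.5 RPM in hypercapnia. Macrophage transcripts were also present in each library, Lyz2 from 8354 to 29110 RPM in normocapnia and from 13410 to 16730 RPM in hypercapnia. The RNA is therefore not taken to come from satellite cells and their descendants alone. In such bulk RNA, fewer cells of a type and less RNA per cell cannot be told apart.

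The question for hypercapnia against normocapnia was whether the FoxO and atrophy ligase transcripts differed between the exposures. On the log2(RPM + 1) scale of the test, 6 of the 8 genes had a lower mean in hypercapnia and 2, Foxo4 and Fbxo40, a higher one, with a median log2 difference of -0.36 beside 0.02 over all genes. By mean RPM 7 were lower, since Foxo4 was then lower too. No gene of the 8 was called at an unadjusted p under 0.05 together with a fold above 1.5 (limma), where 2.57% of all genes were called. Traf6 alone passed the p threshold, lower in every hypercapnia library at a fold of 1.32. After Benjamini-Hochberg adjustment, no gene of the table passed, with the lowest adjusted p at 0.351 (limma). An unadjusted p under 0.05 was found for 1114 of the 23930 genes, a share close to the threshold itself. edgeR and DESeq2, run on whole reads recovered from the RPM, each called Foxo1 and Fbxo32 lower. Their background of lower calls was 3.82% and 3.76%, and no adjusted p of the 8 genes fell below 0.306.

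**Figure D1:**
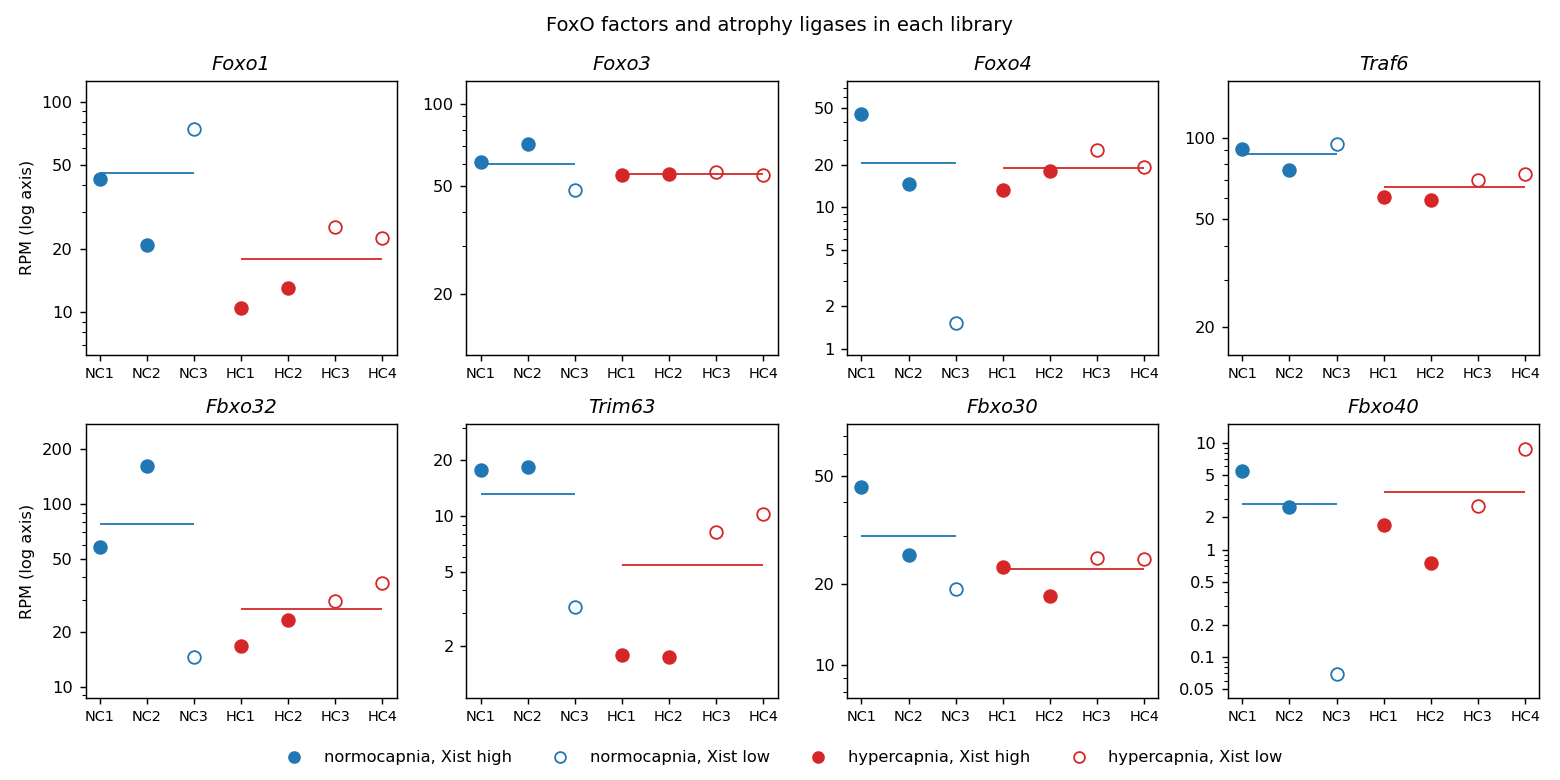
Level of each of the 8 genes in each library in RPM on a log axis, with the span of the axis differing between genes. Points are libraries, filled for Xist-high and open for Xist-low, and lines are group means (n = 3 and n = 4). The Traf6 groups are the only ones that do not overlap, and the hypercapnia libraries of Foxo3 sit between 54.5 and 56.2 RPM.

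Foxo1, a FoxO factor that restrains muscle growth, was at 42.7, 20.9 and 73.9 RPM in normocapnia and at 10.4, 13.1, 25.5 and 22.5 RPM in hypercapnia. The groups overlapped because NC2 lay below HC3 and HC4. The means were 45.8 ± 26.7 (SD, n = 3) and 17.9 ± 7.25 RPM (SD, n = 4). The log2 difference, hypercapnia minus normocapnia, was -1.22 (SE 0.52), with a limma p of 0.0619, an adjusted p of 0.915 and an exact permutation p of 0.143 (two-sided). It was called once NC2 was left out, at -1.69 (adjusted p = 0.522, limma), and lay at -0.80 without NC3.

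Foxo3, the factor that drives Fbxo32 and autophagy genes in wasting fibers, was at 61.2, 71.5 and 48.3 RPM in normocapnia. In hypercapnia it was at 54.6, 55.0, 56.2 and 54.5 RPM, so all 4 hypercapnia libraries lay inside the range of the normocapnia ones. The highest over lowest library was 1.48 in normocapnia and 1.03 in hypercapnia. The log2 difference was -0.11 (SE 0.13, limma p = 0.425, exact permutation p = 0.514). It was 0.02 without NC2 and -0.26 without NC3, where the limma p was 0.0136 but the fold stayed under 1.5.

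Foxo4, the third FoxO factor of muscle, was at 45.8, 14.5 and 1.51 RPM in normocapnia and at 13.3, 18.0, 25.3 and 19.2 RPM in hypercapnia. NC3 stood far below every other library and NC1 above every one. The ratio of highest to lowest library was 30.2 in normocapnia and 1.90 in hypercapnia, where the median over genes averaging at least 10 RPM was 2.47 and 1.45. The log2 difference was 0.67 (SE 1.0, limma p = 0.528, exact permutation p = 0.657), and without NC3 it turned to -0.47. The count models put it at 0.032 and 0.003 (edgeR, with and without a filter) and 0.0044 (DESeq2), and the mean RPM was 20.6 ± 22.7 (SD, n = 3) in normocapnia and 18.9 ± 4.94 (SD, n = 4) in hypercapnia.

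Fbxo32 was at 58.4, 161 and 14.5 RPM in normocapnia and at 16.7, 23.3, 29.6 and 37.2 RPM in hypercapnia. NC1 and NC2 lay above all hypercapnia libraries and NC3 below all of them. The means were 78.0 ± 75.2 (SD, n = 3) and 26.7 ± 8.78 RPM (SD, n = 4), and the normocapnia libraries spanned a ratio of 11.1. The log2 difference was -0.99 (SE 0.83, limma p = 0.277, exact permutation p = 0.343). Without NC3 Fbxo32 was called lower at -1.88 (adjusted p = 0.545, limma), and without NC2 it was at -0.19.

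Trim63 was at 17.8, 18.4 and 3.24 RPM in normocapnia and at 1.80, 1.76, 8.19 and 10.2 RPM in hypercapnia. Each exposure held libraries under 4 RPM and libraries above 8 RPM, and these followed the Xist level in opposite directions. The log2 difference was -1.12 (SE 0.84, limma p = 0.234, exact permutation p = 0.257). It was -1.85 without NC3, -0.77 without NC1 and -0.75 without NC2, and was not called in any of these.

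Fbxo30, the F-box ligase that BMP signaling holds down in muscle, was at 45.5, 25.5 and 19.1 RPM in normocapnia and at 23.1, 17.9, 24.9 and 24.6 RPM in hypercapnia. NC1 was the highest library, and the other 6 lay between 17.9 and 25.5 RPM. The log2 difference was -0.31 (SE 0.31, limma p = 0.351, exact permutation p = 0.343), and it was 0.02 without NC1.

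Fbxo40, the muscle ligase that targets the insulin receptor substrate Irs1, was the lowest-count gene of the 8. It was at 5.40, 2.48 and 0.069 RPM in normocapnia, the last value being 1 read, and at 1.71, 0.754, 2.56 and 8.73 RPM in hypercapnia. The log2 difference of 0.32 (SE 0.84, limma p = 0.721, exact permutation p = 0.743) became -0.40 without NC3 and -0.16 without HC4.

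Traf6 was at 90.8, 75.9 and 95.2 RPM in normocapnia and at 60.5, 58.7, 69.7 and 73.7 RPM in hypercapnia. Every hypercapnia library was below every normocapnia library, with a gap between HC4 and NC2 that was small beside the spread within either group. Means were 87.3 ± 10.1 (SD, n = 3) and 65.7 ± 7.21 RPM (SD, n = 4). The log2 difference was -0.40 (SE 0.12), with p = 0.016 and an adjusted p of 0.909 by limma, and the exact permutation test gave p = 0.0286 (two-sided), the smallest the 35 splits of 7 libraries allow. Non-overlapping groups in the same direction were found in 2.3% of all genes and 4.67% of those averaging at least 10 RPM, and 2.48% of all genes had an unadjusted p under 0.05 in that direction. The limma p rose to 0.0546 without NC1, to 0.0561 without NC3, to 0.0613 with median-of-ratios scaling and to 0.151 once genes averaging under 1 RPM were removed. The count models also missed the threshold, at 0.0753 and 0.0995 in edgeR (with and without a filter) and 0.0596 in DESeq2. The limma p fell to 0.00245 with Xist as a covariate, to 0.00757 with a replicate block and to 0.00861 without NC2. The direction was lower in each of these.

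A shift common to many genes bears on these differences. Over genes averaging at least 1 RPM the median log2 difference was 0.16 in RPM, 0.04 after median-of-ratios scaling and -0.01 after quantile normalization. None of the 8 genes changed direction under either scaling. Traf6 lay at -0.55 and -0.41, Foxo1 at -1.37 and -1.28, and Foxo3 at -0.25 and -0.18 under the 2 scalings in that order. Fbxo30 passed the unadjusted p threshold under both, at -0.45 and -0.50, short of the fold threshold. Trim63 was called lower under quantile normalization, at -1.31 (adjusted p = 0.894, limma).

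Split by Xist level, a choice made after the data were seen, the 8 genes fell into groups. Foxo1 and Traf6 were lower in hypercapnia within both classes, whereas Foxo3, Fbxo32, Trim63, Fbxo30 and Fbxo40 were lower in HC1 and HC2 than in NC1 and NC2 but higher in HC3 and HC4 than in NC3. The opposite pattern was seen in 11.8% and the shared one in 4.92% of all genes, and in 16.3% and 10% of those averaging at least 10 RPM. Because NC3 is the only Xist-low normocapnia library, Xist level and whatever else sets NC3 apart cannot be told apart, and its spread in the fit is assumed to be that of the other libraries. Every value and p of the Xist-low class and of the interaction below rests on NC3 alone against HC3 and HC4, and does not separate hypercapnia from that library.

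**Figure D2:**
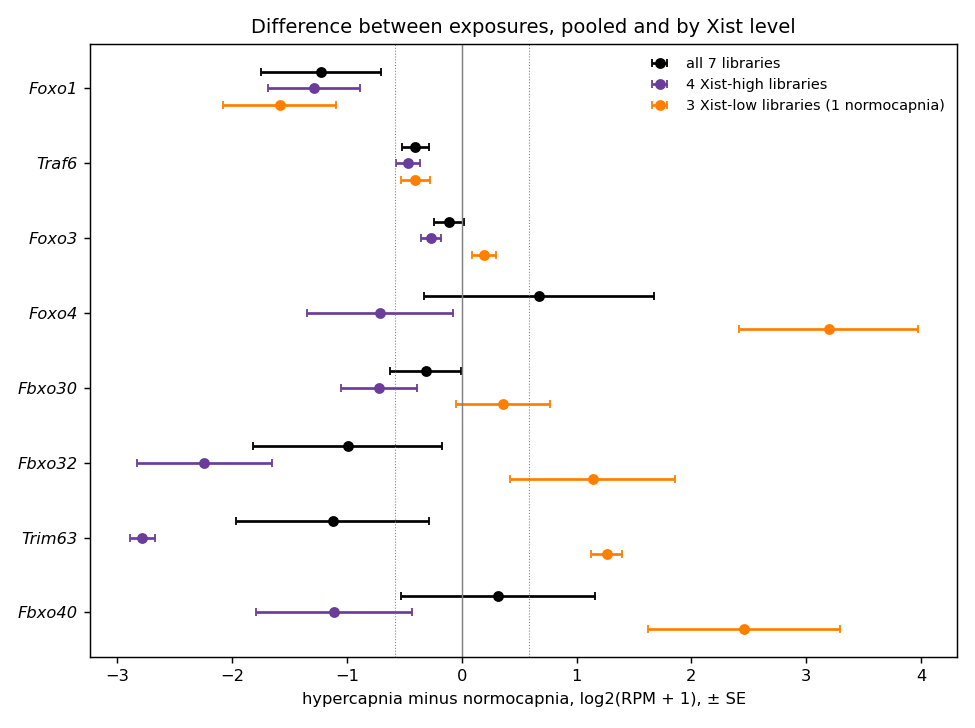
Log2 difference between exposures (hypercapnia minus normocapnia, log2(RPM + 1)) with its SE, for all 7 libraries and within each Xist class. Dotted lines mark a fold of 1.5. Foxo1 and Traf6 are on the lower side in all 3 fits, and Trim63 is at -2.78 in the Xist-high and 1.26 in the Xist-low libraries.

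Trim63 split by class in this way. Its log2 difference was -2.78 (SE 0.11, adjusted p = 0.0946 by limma) within the Xist-high libraries and 1.26 (SE 0.14) within the Xist-low ones, on NC3 alone. The interaction term, the Xist-low minus the Xist-high difference, was 4.04 (SE 0.18). Trim63 had 42, 35 and 47 reads in HC1, HC2 and NC3, so counting error alone is not small beside these SEs. Fbxo32 was at -2.24 (SE 0.59) and 1.14 (SE 0.72), with an interaction of 3.38 (SE 0.93, adjusted p = 0.171, limma). The remaining interaction values of Foxo4, Fbxo40 and Foxo3 were 3.90, 3.57 and 0.46, with adjusted p-values from 0.155 to 0.2 in limma. In all, 5 of the 8 genes had an interaction p under 0.05, where 21.2% of all genes did. Of the 6 that averaged at least 10 RPM, 3 had one, where 37.1% of all genes at that level did.

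For Foxo4 and Fbxo40 the Xist-low difference rests on the low NC3 values. Foxo4 was at -0.71 (SE 0.64) within the Xist-high and at 3.20 (SE 0.78) within the Xist-low libraries. Fbxo40 was at -1.11 (SE 0.68) and at 2.46 (SE 0.84). Both Xist-low values, like that of Trim63, were called higher, where 15.6% of all genes were. With 1 read in NC3, under the 3 reads taken as resolved, and 41 and 129 reads in HC3 and HC4, the ratio of its RPM is poorly fixed, at 80.2 with an exact 95% counting interval of 14.2 to 3190. Foxo3 was at -0.27 (SE 0.09) within the Xist-high and at 0.19 (SE 0.11) within the Xist-low libraries. Fbxo30 was at -0.72 (SE 0.33) and 0.36 (SE 0.41), and an interaction of 1.08 (SE 0.53, adjusted p = 0.384, limma).

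Foxo1 was called lower within both classes, at -1.29 (SE 0.40, adjusted p = 0.429, limma) in the Xist-high and at -1.59 (SE 0.49) in the Xist-low libraries, the latter on NC3 alone. The corresponding shares of genes called lower were 3.5% and 4.3%. Fbxo32 and Trim63 were also called lower in the Xist-high libraries. Traf6 was at -0.47 (SE 0.10) and -0.40 (SE 0.13). The interaction terms of Foxo1 and Traf6 were -0.30 (SE 0.63, adjusted p = 0.856, limma) and 0.07 (SE 0.16, adjusted p = 0.892, limma).

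Myofiber transcripts followed the same opposite pattern as Trim63 and Fbxo32. Of 14 myofiber markers, 12 were lower in hypercapnia in the Xist-high and higher in the Xist-low libraries, as were 2 of 12 satellite cell, 6 of 7 endothelial, 3 of 6 fibro-adipogenic, 3 of 7 neutrophil, 1 of 7 lymphocyte and 0 of 13 macrophage markers. The summed myofiber level was 7536, 1848 and 408 RPM in normocapnia and 1023, 582, 2173 and 3699 RPM in hypercapnia. NC1 was highest and NC3 lowest, and no myofiber marker was at 0 in any library. Of NC1 and NC2, and of HC1 and HC2, Fbxo32 was higher in the library with the lower myofiber sum, and of HC3 and HC4 in the one with the higher sum. Tnnt3, a fast troponin, ran from 55.0 to 1755 RPM in normocapnia and from 128 to 1076 RPM in hypercapnia, and the skeletal actin Acta1 from 4.75 to 402 and from 76.5 to 151 RPM. The myosin light chain Mylpf ran from 108 to 1580 and from 77.2 to 564 RPM. The part of myofiber RNA in the ligase values was not tested.

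**Figure D3:**
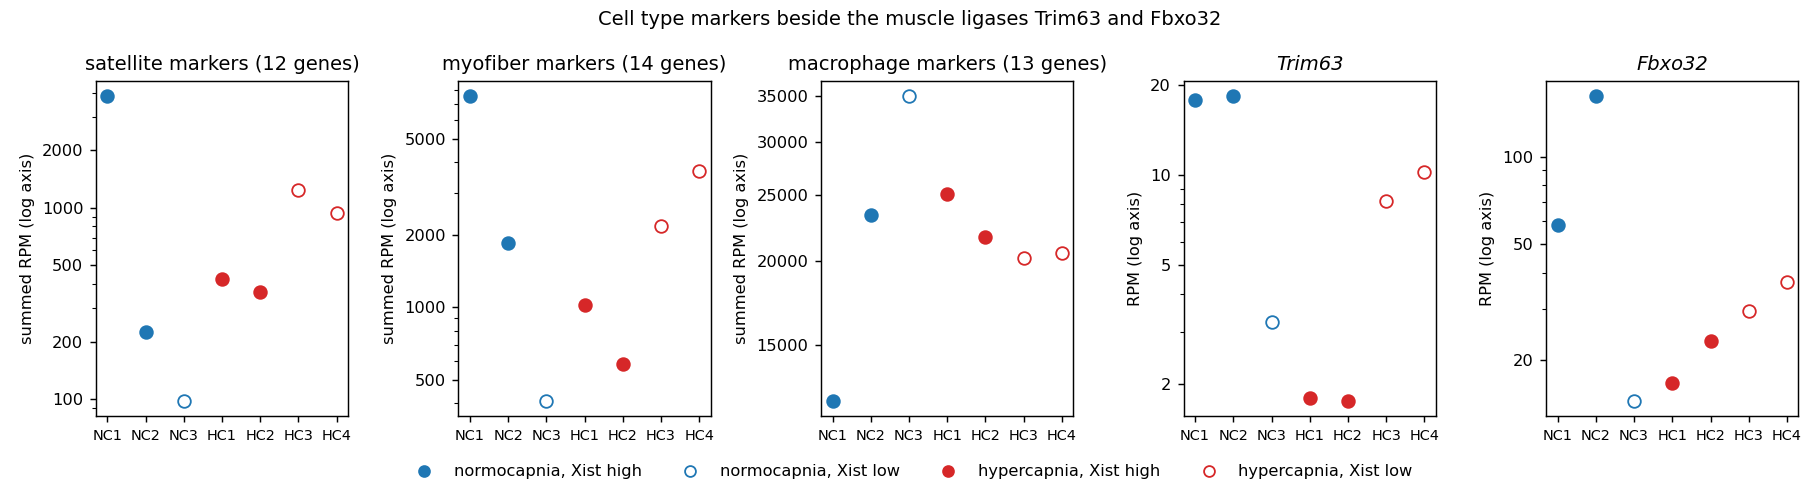
Summed RPM of satellite cell, myofiber and macrophage markers beside Trim63 and Fbxo32 in each library, each on its own log axis. Points are libraries, filled for Xist-high and open for Xist-low. The myofiber sum is 408 RPM in NC3 and 2173 and 3699 RPM in HC3 and HC4, the same order as Trim63 and Fbxo32 in these libraries, whereas NC1 and NC2 differ in myofiber sum and hardly in Trim63, and Fbxo32 is higher in NC2 than NC1 and in HC2 than HC1, against the myofiber sum.

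Satellite cell markers summed to 3830, 225 and 98.0 RPM in normocapnia and to 424, 364, 1245 and 937 RPM in hypercapnia. NC1 was above all other libraries, with Myog, the factor of differentiating myoblasts, at 871 RPM against 0.138 RPM in NC3. The NC3 value is under the smallest level resolved there, 0.207 RPM. Myod1 ran from 7.92 to 302 RPM in normocapnia and from 87.2 to 257 RPM in hypercapnia, and Des, the muscle intermediate filament, from 35.9 to 1193 and from 115 to 382 RPM. No satellite cell or myofiber marker was called. Macrophage markers summed to 12400 to 35020 RPM in normocapnia and 20170 to 25100 RPM in hypercapnia, and Cd68 ran from 729 to 1910 and from 1541 to 2185 RPM. Of the 13, 10 had a higher mean, and 2 (15.4%), Mpeg1 and Adgre1, were called higher at 1.43 and 1.31 (log2). Of all 23930 genes, 343 were called higher and 2.57% in either direction. The lowest adjusted p of the macrophage list was 0.915 (limma). The macrophage gene C1qa, a complement part, was at 0 in 1 library or more. In the remaining lists the sums were 82.1 to 227 RPM in normocapnia and 105 to 329 RPM in hypercapnia for neutrophil markers. Of these 1 of 7 (14.3%), Mmp8, was called higher at 1.25 (log2), with the list's lowest adjusted p at 0.809 (limma). The sums were 89.4 to 227 and 47.3 to 509 RPM for endothelial, 1034 to 1767 and 935 to 2230 RPM for fibro-adipogenic, and 1.17 to 6.25 and 3.94 to 7.08 RPM for lymphocyte markers, of which 6 of 7 were at 0 in some library. HC3 and HC4 held the highest endothelial and fibro-adipogenic sums of all libraries. How much these other cell types set the levels of the 8 genes was not tested.

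The genes that act with the FoxO factors were examined in lists, whose counts are to be read against the 2.57% of all genes called in either direction and the 1.14% called lower. Most list genes averaged at least 1 RPM, and in the fit without genes under that level 558 of 12504 were called, 213 of them lower. That is a larger share than 2.57%, and each list share rests on few genes. Among 18 genes from the insulin and IGF-1 receptors to Akt and its phosphatases, 1 was called, lower (5.56%), and the median log2 difference was 0.03. That gene was Irs2, an insulin receptor substrate, at 51.2, 104.5 and 52.3 RPM in normocapnia and 36.7, 40.1, 41.6 and 33.9 RPM in hypercapnia. All hypercapnia values were below the normocapnia ones, with a log2 difference of -0.77 (SE 0.28, adjusted p = 0.915, limma).

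Among 14 genes made up of Foxo6, the remaining FoxO factor, and proteins that bind or modify FoxO, 1 was called, lower (7.14%), and the median was -0.12. It was Sirt1, the deacetylase that acts on FoxO proteins, at 11.2, 15.1 and 15.4 RPM in normocapnia and 8.60, 7.04, 7.37 and 6.36 RPM in hypercapnia. The groups did not overlap, and the log2 difference was -0.83 (SE 0.14, adjusted p = 0.65, limma).

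Of 23 textbook FoxO targets, 2 were called (8.7%), both lower, with a median of -0.07. Besides Irs2, which is also a target, this was Ccng2, a cyclin that slows the cell cycle, at 40.8, 77.8 and 50.7 RPM in normocapnia and 27.7, 26.5, 19.7 and 18.8 RPM in hypercapnia. Its log2 difference was -1.22 (SE 0.26, adjusted p = 0.729, limma), without overlap between groups. The other 21 targets were not called in either direction, with 10 of the 23 having a higher and 13 a lower mean.

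**Figure D4:**
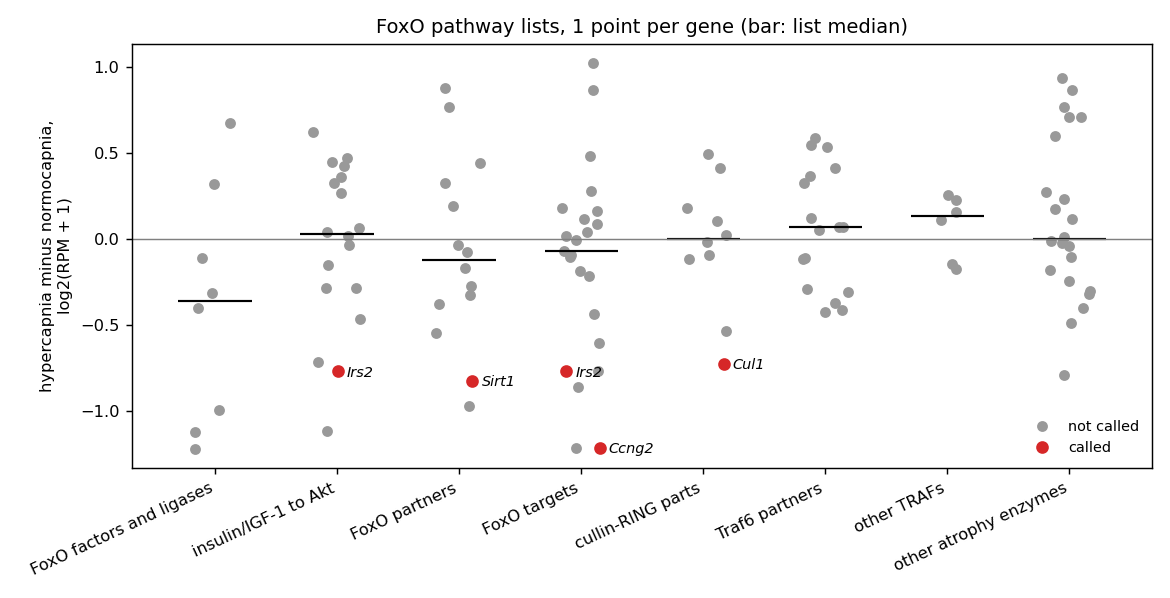
Log2 difference between exposures (hypercapnia minus normocapnia, log2(RPM + 1)) for each gene of the lists, 1 point per gene, spread sideways for sight. Bars are list medians, which lie between -0.36 for the 8 genes and 0.13 for the other TRAF genes, and red points are called genes, all of them lower in hypercapnia.

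The ligase machinery and the relatives of the ligases gave few calls. Of 10 cullin-RING parts, 1 was called (10%, against 2.57% of all genes), Cul1, the cullin on which F-box proteins are mounted, at 90.2, 69.7 and 121.6 RPM in normocapnia and 49.6, 42.7, 76.6 and 55.7 RPM in hypercapnia. Its groups overlapped, with HC3 above NC2, and the log2 difference was -0.73 (SE 0.27, adjusted p = 0.915, limma). Of 17 partners of Traf6 none was called, where 2.57% of all genes were. The smallest p-values belonged to Tab3, an adaptor of the Tak1 kinase, at -0.42 (SE 0.11, adjusted p = 0.827, limma), and to Ikbkg, the scaffold of the IKK complex, at -0.37 (SE 0.14, adjusted p = 0.915, limma). Tab3 was at 18.7 to 24.7 RPM in normocapnia and 14.2 to 16.1 RPM in hypercapnia, and Ikbkg at 20.1 to 23.8 and 13.5 to 20.05 RPM. Neither gene's groups overlapped, though for Ikbkg HC3 lay just under NC3.

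Of the 6 other TRAF genes none was called. Traf5 was at -0.18 (SE 0.20) and Traf4 at 0.16 (SE 0.20), the latter at 0 to 0.714 RPM. Of 22 other ubiquitin enzymes linked to atrophy none was called either. Ube2b, a ubiquitin-conjugating enzyme, was at -0.32 (SE 0.15, adjusted p = 0.915, limma). Across all 78 F-box genes of the Fbxo, Fbxl and Fbxw series, 2 were called lower, Fbxo38 at -0.63 (SE 0.21) and Fbxl20 at -0.62 (SE 0.24), and none higher, a share of 2.56% beside the 2.57% over all genes. Across 55 TRIM genes, 2 were called higher, Trim21 at 0.87 (SE 0.13) and Trim6 at 0.76 (SE 0.30), and 1 lower, Trim13 at -0.59 (SE 0.11), a share of 5.45%. These genes have adjusted p-values of 0.564 or more in limma, with Trim21, a ligase that binds antibodies inside cells, at 7.85 to 8.89 RPM in normocapnia and 13.2 to 19.5 RPM in hypercapnia.

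Genes whose pattern over the 7 libraries was most like that of each gene were sought among 8228 others averaging at least 10 RPM. The measure was Pearson's r of log2(RPM + 1), given as a description, since the points share libraries, groups and depth, and a search over so many genes with 7 points finds high values. Foxo1 was closest to Cnih1 (r = 0.989) and Mdm4 (r = 0.988), and Foxo3 to Mfsd10 (r = 0.988) and Agap3 (r = 0.983). Foxo4 was closest to Ddx51 (r = 0.996) and Hjurp (r = 0.995), and Fbxo32 to Rasgrp1 (r = 0.986) and Cdyl2 (r = 0.976). Fbxo30 was closest to Trim44 (r = 0.984) and Ccl5 (r = 0.98), and Traf6 to Mpp6 (r = 0.993) and Lrrc58 (r = 0.991). No gene of the 8 was among these neighbors of another. Trim63 and Fbxo40, with means under 10 RPM, were not searched.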

How the data were processed

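Libraries were made from total RNA of sorted Pax7-GFP cells with the Ion AmpliSeq mouse transcriptome panel, and the labels name the Transcriptome Analysis Console as the processing tool. The authors deposited RPM (panel reads scaled to a common total) for 23930 genes in 3 normocapnia and 4 hypercapnia libraries, of which 2443 genes are at 0 in each. The sources used here name no aligner or genome build, so only the RefSeq windows carry coordinates. Conditions came from the labels. Whole reads were recovered from the RPM (100% of values within 0.05 reads of a whole number) for the alternatives with edgeR 4.0.16 and DESeq2 1.42.0. Each of the 21 library pairs differed beyond counting error, so none was merged. The pairs were not equally far apart. Chi-square per degree of freedom was 24.6 for HC1 with HC2 and 27.3 for HC3 with HC4. All other pairs were at 104.6 (HC1 with HC4) to 528.2 (NC1 with NC3). The SDs and SEs of hypercapnia treat its 4 libraries as separate, and whether these close pairs share a source is not stated.

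The main test was run in R 4.3.3 with limma 3.58.1, without a filter on low genes, on log2(RPM + 1), a scale that understates fold changes of low genes. Genes were called at an unadjusted p under 0.05 and a fold above 1.5, with Benjamini-Hochberg adjustment over all genes. The scripts were tested on simulated data. Alternatives were quantile normalization or median-of-ratios scaling, pseudocounts of 0.1 and 5 RPM, removal of genes averaging under 1 RPM, limma's trend option, an Xist covariate, a replicate block and each library left out. The 8 genes and the lists were chosen with earlier results of these data known. Genes were named by rule: the 8 genes, the called genes of each pathway list (or else the 2 with the smallest p), the 2 highest genes of the satellite cell, myofiber and macrophage lists with Pax7, Myod1, Myog, Acta1 and Lyz2 (those of the other marker lists are given as sums), and the 2 genes most correlated with each of the 8. Mpeg1, Adgre1, Mmp8 and C1qa were named after their values were seen. Genes of the lists without a row in the table were not analysed here. The naming rule also picked 1 gene whose values are left out here. In the split by Xist level, NC3 alone stands for Xist-low normocapnia.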

Additional observations from a re-analysis of the deposited data

Results flagged for a closer look

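For 5 of the 8 genes the limma interaction between exposure and Xist level had an unadjusted p under 0.05, in a fit where 1 library, NC3, stands for Xist-low normocapnia. The difference of the log2 effects, Xist-low minus Xist-high, was 4.04 for Trim63, 3.90 for Foxo4, 3.57 for Fbxo40, 3.38 for Fbxo32 and 0.46 for Foxo3. Trim63 had only 42, 35 and 47 reads in HC1, HC2 and NC3, so counting error also weighs on its term. The Xist-low effect of each of the 5 genes rests on NC3, the single Xist-low normocapnia library. The spread of NC3 was assumed to be that of the others, so the test does not separate hypercapnia from that library. Trim63 had an adjusted p of 0.0296 (limma) under that assumption, as 766 genes had one under 0.05, and 21.2% of all genes, and 37.1% of those averaging at least 10 RPM, had an unadjusted interaction p under 0.05. Of the 6 genes described here that averaged at least 10 RPM, 3 did. In the hypercapnia libraries, 12 of 14 myofiber, 6 of 7 endothelial, 3 of 6 fibro-adipogenic, 3 of 7 neutrophil, 2 of 12 satellite cell, 1 of 7 lymphocyte and 0 of 13 macrophage markers were lower in the Xist-high and higher in the Xist-low class. The part of these cell types in the values was not tested, and Xist level and the NC3 library cannot be told apart here.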

How the results depend on the processing

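Traf6 was not called and kept its direction in all 21 alternatives, though its unadjusted limma p missed 0.05 in several, up to 0.151 with the filter. The filter, the trend option and the exact permutation test reuse the main estimate, so for any gene they cannot change the direction. Foxo1 kept its direction in all 21 and was called in 9, which include the Xist-low fit that rests on NC3 alone. It was at -1.22 with the filter, -1.63 and -1.60 with edgeR (with and without a filter), -1.70 with DESeq2 and -1.44 with Xist as a covariate. Within the Xist-high and Xist-low libraries it was at -1.29 and -1.59. With a replicate block Foxo1 was called, at -1.36, and Fbxo40 turned to -0.16. HC4 has no partner number, so these estimates equal those without HC4, where Foxo1 was not called. The numbers share no stated litter or day, and deviations of same-numbered libraries correlated at -0.375, 0.509 and 0.0279, so they were not taken as pairs, and the block gave 598 calls over all genes. Fbxo32 was called with edgeR (-1.60, without a filter -1.63), with DESeq2 (-1.62) and within the Xist-high libraries (-2.24), and was at 1.14 within the Xist-low ones. Trim63 was called under quantile normalization (-1.31) and within the Xist-high libraries (-2.78), and was at 1.26 in the Xist-low ones. Within the Xist-high and Xist-low libraries, Foxo4 was at -0.71 and 3.20 and Fbxo40 at -1.11 and 2.46. Foxo3 and Fbxo30 turned to 0.19 and 0.36 in the Xist-low ones. Leaving out a library gave -1.69 to -0.80 for Foxo1, -0.26 to 0.018 for Foxo3, -0.47 to 1.64 for Foxo4, -1.88 to -0.19 for Fbxo32, -1.85 to -0.75 for Trim63, -0.58 to 0.023 for Fbxo30 and -0.40 to 0.89 for Fbxo40. Over all genes, 615 were called, 1049 with edgeR without a filter, 1304 with DESeq2 (29 after adjustment), 1316 with Xist as a covariate, 1359 and 4770 within the Xist-high and Xist-low libraries (0 and 1608 after adjustment, the latter on NC3 alone), and 376 to 1990 with a library left out (1990 without NC1, 1205 without NC2, 385 without HC1 and 376 without HC2). Of the calls, 343 were higher and 272 lower, against 336 and 357 under quantile normalization, 294 and 508 with edgeR, 1495 and 495 without NC1 and 235 and 381 without NC3. The causes were not tested. Counts were low for Fbxo40, with 1 read in NC3, for Foxo4, with 22 reads in NC3, and for Trim63, with 42, 35 and 47 reads in HC1, HC2 and NC3. The part of depth in these values was not tested.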
